A study of Mus musculus with 8 samples.

Results

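The fatty acid elongases and desaturases are the enzymes that lengthen a fatty acyl-CoA and put double bonds into it. Of this family, 9 genes were followed, namely the elongases Elovl1, Elovl5, Elovl6 and Elovl7, the stearoyl-CoA desaturases Scd1 and Scd2, and the front-end desaturases and their relative Fads1, Fads2 and Fads3. They were chosen by name, and their probes were found through the transcript accession that the scanner output gives for each probe. On the arrays, 12 of 41174 probes belonged to these 9 genes, of 18749 genes with a probe and 14137 that were tested. All 12 probes were well above background on all 8 arrays, so all 9 genes were tested.

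The RNA came from snap-frozen No. 4 mammary glands of C57/Bl6 dams on lactation day 1, 4 of them wild-type (WT) and 4 of them Th-POK knockout (KO). Th-POK is a zinc finger transcription factor encoded by Zbtb7b, and the knockout is of the whole animal rather than of the gland alone, so the KO dams lack it in T cells too. The glands of each dam gave total RNA, which was labelled with Cy3 and applied to 1 Agilent array per dam, and probe brightness is the measurement. Dams were described as age matched, with no age given for these glands. All WT arrays lay on 1 slide, scanned together, and all KO arrays on another, so genotype and slide cannot be told apart. Zbtb7b read 9.90, 10.42, 10.13 and 10.23 (log2 signal) in WT glands and was not well above background on any KO array, where it read 1.55, 1.56, 1.65 and 1.60, which made it at least 81.5-fold lower (adjusted p = 5.71e-09, limma). The share of probes well above background ran from 66.8% to 75.3% per array. Precision is limited by the number of arrays, 4 a genotype. A whole gland holds secretory epithelium, myoepithelium, fat, stroma and blood cells, and in such RNA fewer cells of a type and less RNA per cell cannot be told apart.

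Palmitate, the product of fatty acid synthase, is the usual starting point of these reactions. An ELOVL enzyme condenses an acyl-CoA with malonyl-CoA in the endoplasmic reticulum, and a ketoreductase, a dehydratase and an enoyl reductase complete the round that lengthens the chain. SCD enzymes place a double bond at the middle of stearate and palmitate and so make oleate and palmitoleate, the main monounsaturated fatty acids of triacylglycerol. FADS1 and FADS2 act nearer the carboxyl end and, with ELOVL5, turn the dietary polyunsaturated fatty acids linoleate and linolenate into arachidonate and other long-chain products. Many of these genes are textbook targets of SREBP-1, and milk fat is rich in oleate.

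Values are log2 of the processed signal after quantile normalization between the 8 arrays. A difference is the mean of the 4 KO arrays minus the mean of the 4 WT arrays, tested with limma over all 14137 genes, and a gene is said to be called when its Benjamini-Hochberg adjusted p was under 0.05. In the KO glands, 7 of the 9 genes had a lower mean and 2, Elovl7 and Fads3, had a higher one. Only 1 of the 7, Elovl1, was called lower, where 8.96% of all genes tested were, and both Elovl7 and Fads3 were called higher, where 7.53% of all genes were. In all, 3 of 9 genes were called against 16.5% of all genes tested. The median difference of the 9 genes was -0.88, beside -0.02 over all genes, and 52.4% of all genes had a lower KO mean.

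WT and KO arrays carry the replicate numbers 1 to 4, and the deviations of same-numbered arrays were weakly correlated (r between 0.165 and 0.304 over all genes). Only 4 of the 8 arrays correlated best with their own number, and what a number shares is not stated, so the pairing is uncertain. With the replicate number as a block, 8 of the 9 genes were called, 6 lower (10.8% of all genes) and 2 higher (8.75% of all genes), and the gene that stayed out was Elovl6. The blocked adjusted p is given below for each gene whose call it changed. With the place of the array on its slide as a block in its stead, a setting chosen after the data had been seen, 0 of the 9 genes were called by limma (6 at an unadjusted p under 0.05), and 0.969% of all genes were. An unadjusted p under 0.05 was common among all genes. In the main limma fit, the gene at rank 5002 of the 14137 tested had an unadjusted p of 0.0468. With weights for the quality of each array, 6 of the 9 were called, against 27.2% of all genes, 4 of them lower (14.9%) and 2 higher (12.3%).

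**Figure D1:**
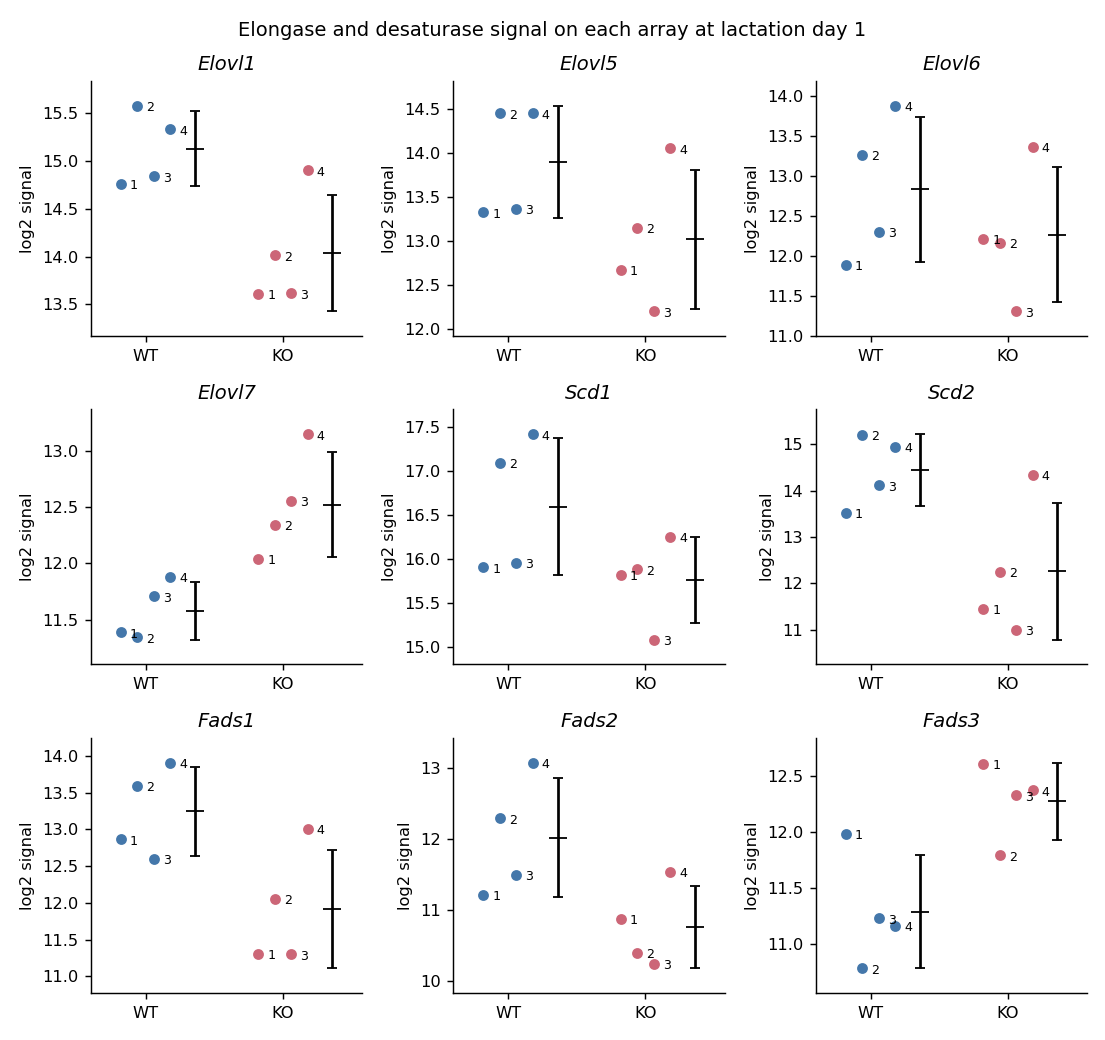
Log2 signal of each gene (y axis, a separate scale for each panel) on the 4 WT and 4 KO arrays; each point is 1 array with its replicate number, and the bar beside the points is the mean ± SD (n = 4). KO array 4 is the highest KO array in 8 of the 9 panels, and Elovl7 is the only panel in which the genotypes do not overlap.

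The promoters below are shown because these genes are known as targets of shared factors and because 7 of the 9 had a lower KO mean and varied together across arrays while Fads3 did not. RefSeq windows from 250 bases before to 50 bases after the start were held for 6 of the 9 genes (7 windows, build GRCm38.p6). No window was held for Scd1, Scd2 or Fads1, so their promoters were not searched. The windows were searched on both strands for the NF-Y box CCAAT, the E-box CACGTG, a sterol regulatory element TCACNCCAC and the LXR element of a pair of AGGTCA half-sites 4 bases apart. The NF-Y box was found in 3 of the 7 windows, those of Elovl1, Elovl5 and Fads3, and in 37.4% of the 32851 promoters of the table. The E-box was found in 1, that of Elovl5, and in 7.15% of all promoters. Neither of the other motifs was found in the 7 windows, where 1.24% and 0.0152% of all promoters hold them. The 250 bases before the start of the 3 genes with a match follow, all on the plus strand, with matches in capitals (ATTGG is CCAAT on the other strand). The window of Elovl1 is chr4:118427843-118428092, that of Elovl5 chr9:77917115-77917364 and that of Fads3 chr19:10041298-10041547.
Elovl1: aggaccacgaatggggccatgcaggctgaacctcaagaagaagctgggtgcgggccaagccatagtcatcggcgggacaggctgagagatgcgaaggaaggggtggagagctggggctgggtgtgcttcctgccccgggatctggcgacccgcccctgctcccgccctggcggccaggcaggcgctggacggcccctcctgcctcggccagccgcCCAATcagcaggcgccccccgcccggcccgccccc
Elovl5: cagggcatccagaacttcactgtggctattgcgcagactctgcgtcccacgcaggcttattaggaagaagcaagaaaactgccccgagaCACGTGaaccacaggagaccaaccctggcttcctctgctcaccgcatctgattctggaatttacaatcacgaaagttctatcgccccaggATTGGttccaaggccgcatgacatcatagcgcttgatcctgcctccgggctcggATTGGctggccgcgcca
Fads3: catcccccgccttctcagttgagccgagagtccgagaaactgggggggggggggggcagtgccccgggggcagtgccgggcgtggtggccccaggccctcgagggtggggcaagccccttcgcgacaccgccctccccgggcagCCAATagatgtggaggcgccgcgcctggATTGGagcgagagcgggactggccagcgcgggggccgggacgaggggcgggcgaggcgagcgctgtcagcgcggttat
The box spanned positions -35 to -31 relative to the start in Elovl1, -71 to -67 and -17 to -13 in Elovl5, and -106 to -102 and -78 to -74 in Fads3. The E-box of Elovl5 spanned -161 to -156. Elovl1, called lower, and Fads3, called higher, thus both held a CCAAT, and no match was found for Elovl7, also called higher. A match is a run of letters, not a measured site.

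Elovl1 makes saturated and monounsaturated very long chains, the precursors of sphingolipids. Its log2 signals were 14.76, 15.58, 14.84 and 15.33 on WT arrays 1 to 4, and 13.61, 14.01, 13.62 and 14.90 on KO arrays 1 to 4. KO arrays 1 to 3 lay below every WT array, and KO array 4 lay inside the WT range. The signal was lower in the KO glands by a log2 difference of -1.09 (SE 0.31, 95% interval -1.81 to -0.38, adjusted p = 0.0472), or 2.14-fold. Each of the 4 KO arrays was below the WT array of its number. The call was held without WT array 1 or KO array 4 (adjusted p = 0.0421 and 0.0164) and was lost without any of the other 6 arrays. Without WT arrays 2, 3 and 4 in turn the adjusted p was 0.124, 0.0760 and 0.0923, and without KO arrays 1, 2 and 3 it was 0.112, 0.0966 and 0.120.

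Elovl5 extends polyunsaturated acyl-CoAs that FADS2 has desaturated. Its log2 signals were 13.33, 14.45, 13.37 and 14.45 on the WT arrays and 12.67, 13.15, 12.20 and 14.05 on the KO arrays. The ranges overlapped through KO array 4, and KO arrays 1 to 3 lay below every WT array. The difference was -0.88 (SE 0.43, 95% interval -1.86 to 0.11, adjusted p = 0.177) and -0.89 at its other probe. With the replicate block Elovl5 was called lower (adjusted p = 0.0293), and each KO array lay below the WT array of its number.

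Elovl6 elongates palmitate to stearate and so feeds the SCD reaction. It read 11.89, 13.26, 12.30 and 13.88 on the WT arrays and 12.21, 12.16, 11.30 and 13.37 on the KO arrays. The genotypes overlapped over most of their range, and KO array 1 was above the WT array of its number. The difference of -0.57 (SE 0.53, 95% interval -1.77 to 0.63, adjusted p = 0.465) was within the spread of the arrays, with the replicate block too (adjusted p = 0.153). The interval reaches from a difference larger than that of Elovl1 to one above 0.

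Elovl7 elongates saturated acyl-CoAs of long and very long chain. In contrast to the other elongases it read 11.39, 11.34, 11.71 and 11.88 on the WT arrays and 12.04, 12.34, 12.55 and 13.15 on the KO arrays. All 4 KO arrays lay above all 4 WT arrays with a gap of 0.16, as in 11.1% of all genes tested. It was the only 1 of the 9 genes whose genotypes did not overlap, where 24.1% of all genes had no overlap in either direction (12.9% with all KO arrays below). The signal was higher in the KO glands by 0.94 (SE 0.24, 95% interval 0.40 to 1.48, adjusted p = 0.0337), and by 0.60 at its other probe (adjusted p = 0.0586 over 27653 probes). At that other probe the genotypes overlapped, with KO array 1 at 9.83 and WT array 4 at 9.95. The call was lost without WT array 1, 2 or 3 (adjusted p = 0.0519, 0.0927 and 0.0669) and without KO array 2 or 3 (adjusted p = 0.0627 and 0.0870).

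Scd1 is the main stearoyl-CoA desaturase of fat and liver and of the lactating gland. It read 15.91, 17.10, 15.96 and 17.42 on the WT arrays and 15.83, 15.89, 15.09 and 16.25 on the KO arrays. WT arrays 2 and 4 lay above every KO array, whereas WT arrays 1 and 3 were within the KO range. The difference was -0.83 (SE 0.39, 95% interval -1.73 to 0.06, adjusted p = 0.161). With the replicate block Scd1 was called lower (adjusted p = 0.0447), and the within-number differences ran from -1.21 to -0.08.

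Scd2 is the isoform of brain and of many other tissues, and it had the largest difference of the 9 genes. Its signals were 13.52, 15.21, 14.11 and 14.95 on the WT arrays and 11.45, 12.26, 11.01 and 14.34 on the KO arrays. KO arrays 1 to 3 lay below every WT array, while KO array 4 lay between WT arrays 3 and 4. The difference was -2.18 (SE 0.70, 95% interval -3.79 to -0.58), which did not pass after adjustment (adjusted p = 0.0635). Scd2 was called lower without KO array 4 (difference -2.88, adjusted p = 0.0150) and with the replicate block (adjusted p = 0.0268). The 4 Scd genes of the mouse are close in sequence, and whether the probe of one Scd gene also takes up the transcript of another was not tested.

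Fads1 is the delta-5 desaturase that makes arachidonate. It read 12.87, 13.60, 12.60 and 13.91 on the WT arrays and 11.31, 12.05, 11.30 and 13.00 on the KO arrays. Again KO arrays 1 to 3 lay below every WT array, and KO array 4 was inside the WT range. The difference of -1.33 (SE 0.43, 95% interval -2.31 to -0.34) missed the threshold (adjusted p = 0.0651). Fads1 was called lower without KO array 4 (difference -1.69, adjusted p = 0.0261) and with the replicate block (adjusted p = 0.0104).

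Fads2 is the delta-6 desaturase that starts the conversion of linoleate and linolenate. It read 11.21, 12.29, 11.49 and 13.07 on the WT arrays and 10.87, 10.40, 10.24 and 11.54 on the KO arrays. The ranges overlapped through KO array 4, which lay above WT arrays 1 and 3. The difference was -1.25 (SE 0.43, 95% interval -2.24 to -0.26, adjusted p = 0.0781). Fads2 was called lower without WT array 1 (adjusted p = 0.0425) and with the replicate block (adjusted p = 0.0295).

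Fads3 lies beside Fads1 and Fads2 and is known for desaturating the sphingoid base of ceramides. Its signals were 11.98, 10.78, 11.23 and 11.16 on the WT arrays and 12.61, 11.79, 12.33 and 12.37 on the KO arrays. WT array 1 was the highest WT array and lay above KO array 2, and the other WT arrays lay below every KO array. The signal was higher in the KO glands by 0.99 (SE 0.27, 95% interval 0.38 to 1.60, adjusted p = 0.0402), and its other probe was higher by 0.92 (adjusted p = 0.0312 over 27653 probes). The call was lost without WT array 2, 3 or 4 (adjusted p = 0.102, 0.0882 and 0.0782) and without KO array 1, 3 or 4 (adjusted p = 0.0982, 0.0993 and 0.0677).

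**Figure D2:**
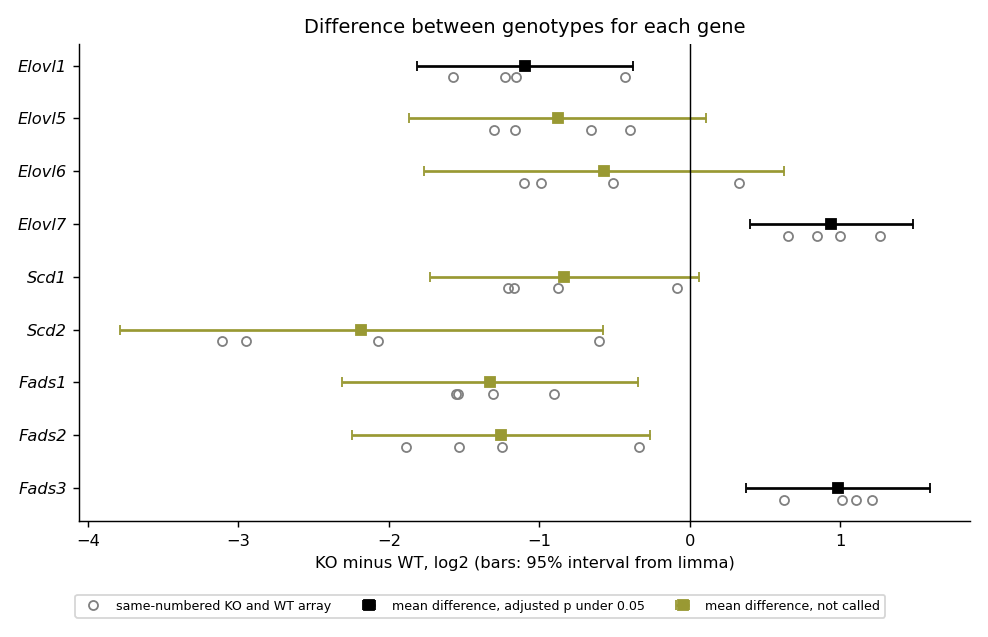
Difference between genotypes (x axis, KO minus WT on the log2 scale; squares are means with the 95% interval from limma) for the 9 genes, with the difference of each same-numbered pair of arrays as open circles. All 4 circles lie on the side of the mean for 8 genes, and for Elovl6 1 of 4 lies above 0.

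The genes with a lower KO mean also went up and down together within a genotype. After the genotype mean was taken from each array, the 21 pairs among these 7 genes had Pearson r between 0.74 and 0.98 over the 8 arrays (median 0.90), a description of arrays that share RNA and normalization. WT arrays 2 and 4 lay above WT arrays 1 and 3 for all 7 genes. KO array 4 was the highest KO array for 8 of the 9 genes, and KO array 3 was the lowest for 6. Fads3 did not follow them, with r between -0.49 and -0.29 to the 7 genes, and Elovl7 lay between with r of 0.28 to 0.66. The negative r of Fads3 was weak. On KO array 4, where the 7 genes peaked, Fads3 too was above its KO mean (12.37 against 12.27).

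**Figure D3:**
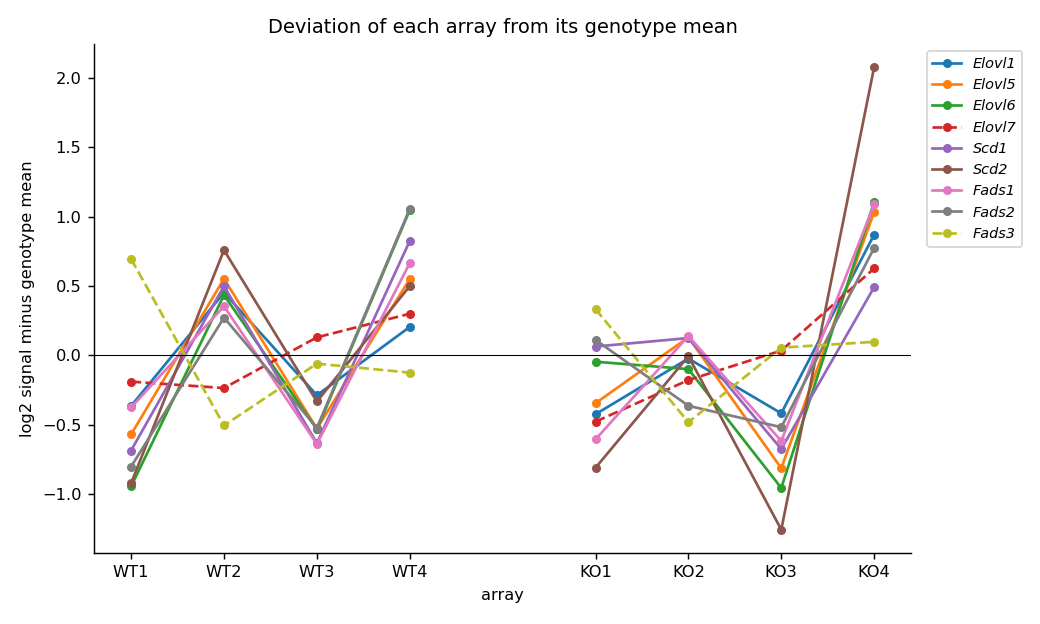
Log2 signal of each gene minus the mean of its genotype (y axis) on each of the 8 arrays (x axis); solid lines are the 7 genes with a lower KO mean and dashed lines are Elovl7 and Fads3. The solid lines peak at WT arrays 2 and 4 and at KO array 4, where Scd2 stands 2.08 above its KO mean.

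Whether relatives changed unequally was asked with the log2 ratio of their signals on the same array, for 10 pairs within the elongases, the Scd genes and the Fads genes. Each was set against genotype in an exact permutation test (two-sided, all 70 ways to split the arrays 4 and 4), whose smallest p is 0.0286. Relative to Elovl7, Elovl1 was lower in the KO glands by a log2 ratio difference of -2.04, Elovl5 by -1.82 and Elovl6 by -1.51, and in each of the 3 pairs the WT and KO ratios did not overlap (exact p = 0.0286, adjusted p = 0.0571 over the 10 pairs). Among Elovl1, Elovl5 and Elovl6 the differences were -0.22, -0.53 and -0.31 for Elovl1 to Elovl5, Elovl1 to Elovl6 and Elovl5 to Elovl6 (exact p = 0.229, 0.200 and 0.200).

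In the Fads group, the log2 ratio of Fads1 to Fads3 was lower in the KO glands by a difference of -2.31 and that of Fads2 to Fads3 by -2.24, again with no overlap (exact p = 0.0286, adjusted p = 0.0571). The ratio of Fads1 to Fads2 differed by -0.07 (exact p = 0.83), with 2 number pairs above 0 and 2 below. That of Scd1 to Scd2 was 1.35 higher in the KO glands (exact p = 0.0857, adjusted p = 0.143), with KO array 4 alone below its WT partner. After adjustment 0 of the 10 ratios passed, and 5 had an unadjusted p under 0.05, the smallest that 4 against 4 arrays allow. With only 5 of the 10 pairs at that smallest p, the adjusted p cannot be under 0.0571. That 0 passed therefore says little about whether relatives changed unequally. For the 5 ratios without overlap, all 4 number pairs had the sign of the mean, as the lack of overlap already requires. Each of the 5 sets Elovl7 or Fads3, both called higher, against a gene with a lower KO mean. They thus restate the differences of those genes and are not separate results. The share of all gene pairs without overlap was not computed, and among single genes 24.1% had no overlap.

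**Figure D4:**
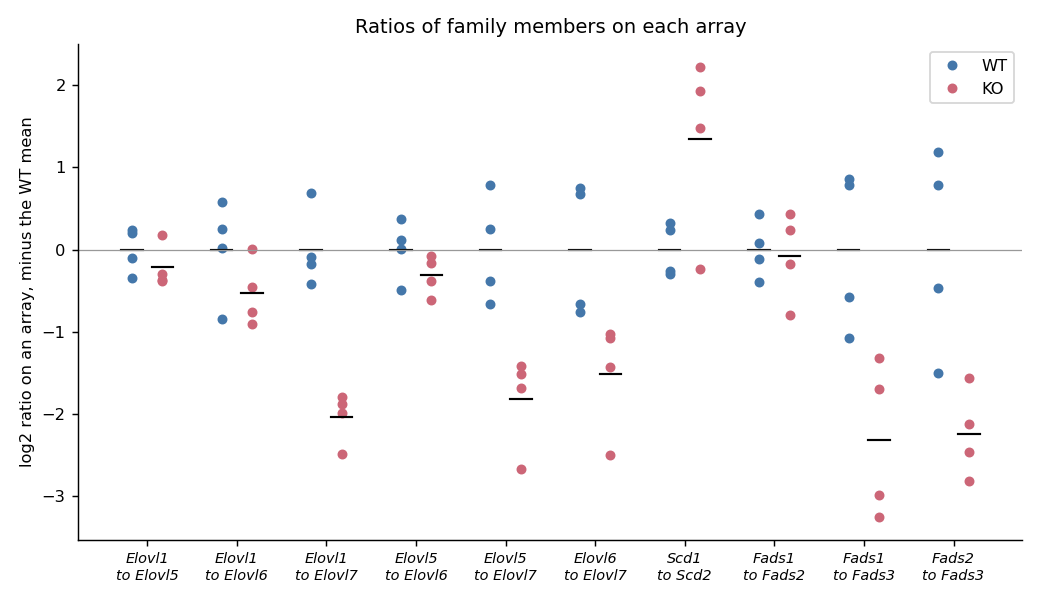
Log2 ratio of 2 genes of a family on each array, minus the mean of the WT arrays for that pair (y axis), for 10 pairs (x axis); points are arrays and lines are genotype means (n = 4). The 3 ratios to Elovl7 and the 2 ratios to Fads3 have no overlap between WT and KO, and the ratio of Fads1 to Fads2 overlaps throughout. The ratios without overlap share Elovl7 or Fads3 and are not separate results.

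Other genes of the pathway were read from the same fit. Among the other family genes, 2 of 5 tested were called, both lower. Scd3, another stearoyl-CoA desaturase, was lower by a difference of -2.19 (SE 0.41, adjusted p = 0.0158), with no overlap between genotypes, and was called without any 1 array except KO array 3 (adjusted p = 0.0509). Fads6, whose substrate is not settled, was lower by -0.88 (adjusted p = 0.0344) but was well above background on only 2 of the 4 KO arrays, and the call was lost without WT array 2, 3 or 4 or KO array 2, 3 or 4 (adjusted p at most 0.0915). Elovl3, an elongase of brown fat and skin, had a difference of 1.52 (SE 1.15, adjusted p = 0.371) and was well above background on 2 of the 4 WT arrays. Elovl4 and the ceramide desaturase Degs1 had differences of -0.32 and 0.03. Elovl2, Scd4 and Degs2 were well above background on 1, 3 and 0 arrays and were not tested, and no probe was matched to Faxdc2.

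Of the enzymes that complete an elongation round, 1 of 6 tested was called. Hsd17b12, the 3-ketoacyl-CoA reductase, was lower by -0.76 (SE 0.16, adjusted p = 0.0228), with KO arrays all below WT arrays. That call was lost without WT array 2 or KO array 1, 2 or 3, with an adjusted p of at most 0.0672. Tecr, the enoyl-CoA reductase, had a difference of -0.55 (adjusted p = 0.263) and was called lower with the replicate block (adjusted p = 0.0358). The dehydratases Hacd1, Hacd2, Hacd3 and Hacd4 had differences between -0.18 and -0.06 and were not called, and Tecrl was not above background. Desaturases take electrons from cytochrome b5 and its reductase, and 0 of 5 such genes were called by limma, with 2 at an unadjusted p under 0.05. Cyb5b, the outer mitochondrial membrane form, had a difference of -1.14 (adjusted p = 0.0503, with the block 0.0209), Cyb5a, the form of the endoplasmic reticulum, had 0.36 (adjusted p = 0.0548), and Cyb5r1 had -0.28 (adjusted p = 0.221).

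Genes that supply palmitate and malonyl-CoA had a lower KO mean in 10 of 10 cases, with a median difference of -1.04, and 1 of them was called. Acacb, the acetyl-CoA carboxylase of the mitochondrial surface, was lower by -1.85 (SE 0.51, adjusted p = 0.0428), a call lost without WT array 2, 3 or 4 or KO array 1, 3 or 4 (adjusted p at most 0.116). Acly, which makes cytosolic acetyl-CoA from citrate, had a difference of -1.63 (adjusted p = 0.0639), and Thrsp, a lipogenic regulator, had -1.09 (adjusted p = 0.106). With the replicate block 6 of the 10 were called lower, namely Acly, Acaca, Acacb, Fasn, Thrsp and Slc25a1. Acyl-CoA synthetases and acyltransferases moved in both directions. Of 8 tested, Mboat2, an acyltransferase of phospholipid remodelling, was higher by 0.92 (SE 0.18, adjusted p = 0.0187), a call lost without KO array 1 or 3 (adjusted p at most 0.0581). Acsl5, an acyl-CoA synthetase, was lower by -0.43 (adjusted p = 0.0387), a call lost with the block (adjusted p = 0.0541) and without any 1 array but WT array 1 (adjusted p at most 0.098). Mboat1, a relative of Mboat2, had a difference of 1.14 (adjusted p = 0.0529).

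Of the known transcriptional regulators of these enzymes, 5 of 18 tested were called, 4 lower and 1 higher. Srebf1, which encodes SREBP-1, read 14.48 on average on the KO arrays and 15.79 on the WT arrays, a difference of -1.31 (SE 0.19, adjusted p = 0.00880). Its genotypes did not overlap, and it was called without each of the 8 arrays in turn (adjusted p between 0.00725 and 0.0350). Insig1, an SREBP target that retains SREBP in the endoplasmic reticulum, was lower by -2.30 (SE 0.45, adjusted p = 0.0180), a call lost by a small margin without KO array 1 or 3 (adjusted p at most 0.0517). Mlx, the partner of ChREBP, and Nfyc, a subunit of NF-Y, were lower by -0.67 and -0.54 (adjusted p = 0.0403 and 0.0236), and Nr1h3, which encodes LXR-alpha, was higher by 0.68 (adjusted p = 0.0251). These 3 calls were each lost without WT array 2 or 3 or KO array 1, 2 or 3, and that of Mlx also without WT array 4 (adjusted p at most 0.104, 0.073 and 0.075). Srebf2 and Mlxipl had differences of -0.26 and 0.53 and were not called (adjusted p = 0.280 and 0.442). Hnf4a was below the filter.

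**Figure D5:**
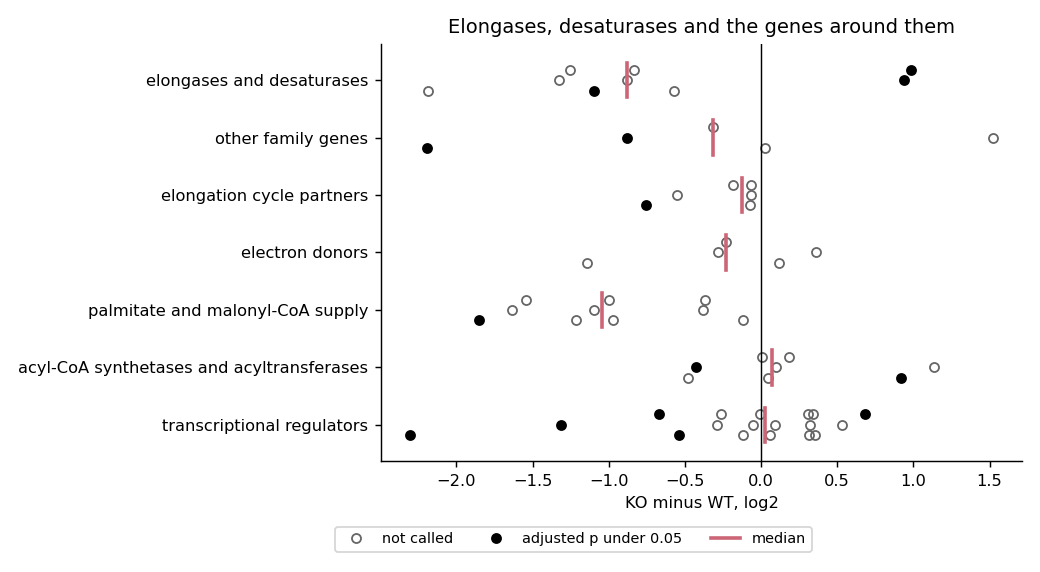
Difference between genotypes (x axis, KO minus WT on the log2 scale) for each tested gene of 7 groups (y axis); filled points have an adjusted p under 0.05 and red lines are group medians. All 10 genes of palmitate and malonyl-CoA supply lie below 0, as do 7 of the 9 elongases and desaturases, and the regulators lie on both sides.

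Markers of the cells of a gland were read beside these values, and their part in the differences was not tested. Milk protein genes were called in 0 of 6 cases (0 also at an unadjusted p under 0.05 in limma), with a mean log2 signal of 17.12 to 17.35 on the WT arrays and 17.06 to 17.41 on the KO arrays. Quantile normalization gives spots of equal rank the same value, which can narrow differences among the brightest probes. Wap, for instance, read 18.475 on KO arrays 1, 3 and 4. Btn1a1, also on this list, had no usable value on KO array 4 and was not tested. Luminal epithelial markers were called higher in 3 of 7 (Krt18, Epcam and Cdh1), with means of 13.72 to 14.21 on WT and 14.31 to 14.51 on KO arrays. Adipocyte markers were called higher in 2 of 7 (Plin1 and Cfd), with means of 13.12 to 13.86 on WT and 13.68 to 13.93 on KO arrays. Of myoepithelial markers 1 of 7 was called, Krt17, which was lower. Fibroblast markers were called higher in 1 of 6, endothelial in 0 of 6 and macrophage in 0 of 5 (2 and 0 at an unadjusted p under 0.05 in limma). Neutrophil markers were called higher in 2 of 5, Ngp and Camp, neither above background on any WT array, with means of 5.93 to 6.72 on WT and 8.23 to 9.38 on KO arrays, and Elane was not well above background on any array. T cell markers were called lower in 2 of 6 (Cd3e and Cd4) and B cell markers higher in 1 of 4, with Pax5 not well above background on any array. Cdh1, Ngp and Camp were called without each array in turn, and every other marker call was lost without WT array 2 or KO array 1, 2 or 3 (adjusted p at most 0.106), some without further arrays. With the replicate block Epcam, Cd4 and Cd79b were no longer called (adjusted p = 0.0598, 0.0596 and 0.0744), whereas the milk protein gene Lalba was called lower and Col1a1 and S100a9 higher (adjusted p = 0.0444, 0.0342 and 0.0459).

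The genes nearest to the Fads and Scd genes were read too, in the order of the gene table on chromosome 19 and chosen after their values had been seen. From Best1 through Rab3il1, Fads3, Fads2, Fads1 and Fen1 to Tmem258 the differences were 1.46, 0.51, 0.99, -1.25, -1.33, -0.99 and -0.01. Best1, a chloride channel, and Fads3 were called higher at one end, and Fen1, a DNA flap endonuclease, was called lower next to Fads1 (adjusted p = 0.0140, 0.0402 and 0.0402). Around the Scd genes, Pkd2l1 and Sec31b had differences of -0.40 and 0.45, the latter called higher (adjusted p = 0.0356), on either side of Scd3, Scd2 and Scd1 with -2.19, -2.18 and -0.83.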

How the data were processed

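Expression in No. 4 glands (4 WT and 4 KO dams) was measured on 8 one-colour Agilent arrays. The authors deposited Feature Extraction 10.7 scanner output with background-subtracted intensities, and a table of log2 values they had quantile-normalized in GeneSpring. Each column of that table correlated above 0.998 with the log2 processed intensity of its array (median 6.32, uncentred) and served as an alternative. The processed intensities, control spots apart, were log2-transformed and quantile-normalized with limma 3.58.1 (R 4.3.3), outlier-marked spots (64 to 100 per array) left out, and spots of a probe averaged. Symbols came from probe accessions through the GRCm38.p6 gene table (26728 of 27094 NM probes and 27479 probes in all matched). The files name build mm9, so no coordinates are given for genes or probes, and those of the promoter windows are of the RefSeq table on GRCm38.p6. A probe entered if the 4 arrays of either genotype all had it well above background, and the brightest probe stood for its gene. Genes were called at a Benjamini-Hochberg adjusted p under 0.05, with the script checked on simulated data.

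Genes described are the 9 enzymes, from each related list those called and the 3 with the smallest p, marker lists by counts, and the 5 genes most like the enzymes across arrays. The enzymes, lists and rules were chosen with earlier results of these data known. Replicate numbers were treated as pairing the arrays only in the replicate block and in the within-number differences. The main fit was unpaired, with no block. Deviations from the genotype mean correlated at 0.219, 0.165, 0.304 and 0.283 within numbers, though only 4 of 8 arrays correlated best with their own number. The mean between different numbers, -0.079, follows largely from taking out the genotype means and is no separate check of the pairing. The methods name 4 independent sets of replicates without saying what a set shares. The normexp alternative used median signals (offset 50). A slide block could not be fitted, and protein and probe sequences were not used here.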

Additional observations from a re-analysis of the deposited data

Results flagged for a closer look

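A value that lay far from the other 3 arrays of its genotype was found in 6 of 156 groups of 4 arrays (Dixon's test at the 95% level), and chance gives about 1 in 20. None of the 6 concerned the 9 elongases and desaturases. Cyb5r4, a cytochrome b5 reductase, read 11.06 on KO array 2, where the nearest other KO array read 11.18. Acsl4, an acyl-CoA synthetase of arachidonate, read 13.60 on WT array 2 against 14.04. Mbtps1, the protease that makes the initial cleavage of SREBP, read 12.74 on KO array 4 against 12.94. Usf1, an E-box factor, read 7.48 on KO array 2 against 7.81, and Nfya, a subunit of NF-Y, read 8.83 on KO array 3 against 8.30. The mean of the 5 neutrophil markers was 9.38 on KO array 1 and 8.36 on the nearest KO array.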

How the results depend on the processing

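The direction of each of the 9 enzymes was the same under all 20 alternatives, and the calls depended on the setting. Many alternatives could not change the direction. The filters, unmatched probes kept, both blocks, the Student test and the trended robust eBayes left each difference at its main value. They changed only its error or the genes tested beside it. The direction was open to change under the other scalings and value tables, probe means, array weights and arrays left out. Scaling to the 75th percentile, normexp, the table of the authors, probes above background on all 8 arrays, the mean of the probes of a gene, unmatched probes kept and a trended robust eBayes each left 3 enzymes called (1 lower, 2 higher). Of all genes tested, with unmatched probes where kept, 15.4% to 17.3% were called in these settings, 7.51% to 10.2% lower and 7.09% to 7.99% higher. The enzymes called were 0 (0 lower, 0 higher) without a filter on dim probes, with the methods' Student test and with array position as a block. In each of these settings 6 had an unadjusted p under 0.05, a count that lacks the share of all genes beside it. Over all genes, 9.44% (1766 of 18717), 9.83% and 0.969% were called in these settings, and 0 of 9 is near such shares. Array position also left 0 calls among the related genes and 2 among the markers, Ngp and Camp. The enzymes called were 8 with the replicate block (6 lower, 2 higher) and 6 with array weights (4 lower, 2 higher). Leaving out each array in turn gave 0 to 4 called, 0 to 3 of them lower and 0 to 1 higher. Of all genes, 3.64% to 21.7% were called without an array, 1.75% to 11.9% lower and 1.9% to 9.8% higher. Over all genes, 2331 were called, against 1389 with the Student test, 3841 with array weights, 137 with array position and 519 to 3076 without an array, with the fewest without KO array 3 and the most without WT array 1. The replicate block called 2762. It changed the calls named beside each result and, among markers and related genes, no call of Srebf1, Insig1, Scd3, Hsd17b12, Mboat2, Mlx, Nfyc or Nr1h3. The KO minus WT difference in the log2 ratio of Fads1 to Fads2 ran from -0.24 to 0.17 when an array was left out. It turned to 0.07 without WT array 1 and to 0.17 without KO array 1, and the cause was not tested. For the ratios, an exact test of 4 within-number differences cannot give a p under 0.125, so the pairing gives no call there. All 12 probes were above background throughout, so signal over background did not limit the enzymes.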

Other observations

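Among the other 14128 genes compared, the log2 signal most like the mean centred signal of the 9 enzymes over the 8 arrays was that of Dlat, a subunit of the pyruvate dehydrogenase complex (Pearson r = 0.993). Next were Fut4, a fucosyltransferase (0.991), Oxct1, which activates ketone bodies (0.990), Vopp1 (0.989) and Gsdmc2, a gasdermin (0.987). Their differences between KO and WT were -0.69, -1.25, -0.70, -0.23 and -1.56, and none of the 5 was called. The 8 arrays share RNA, slides and normalization with the enzymes, so r is a description only.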
